A study of Arabidopsis thaliana with 6 samples.

Results

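The evening complex, GIGANTEA and the ZEITLUPE family of the plant circadian clock were followed here, as 7 genes chosen by locus identifier: ELF3 (AT2G25930), ELF4 (AT2G40080), LUX (AT3G46640), GI (AT1G22770), FKF1 (AT1G68050), ZTL (AT5G57360, listed as ADO1) and LKP2 (AT2G18915, listed as ADO2). All 7 were found among the 33557 genes of the authors' deposited gene table, and together they held 9 of the 38090 groups of transcripts that share a transcription start (start groups). All 7 genes carried a test by the authors. RNA was sequenced from whole 10-day-old Arabidopsis thaliana seedlings of ecotype Colombia (the spelling of the labels), with 3 replicate libraries of the wild-type (Col) and 3 of a CPL4 knockdown (CPL4RNAi). No treatment is named for either genotype. CPL4 is a phosphatase of the RNA polymerase II C-terminal domain, and the series asks how it and salt stress shift transcription from small nuclear RNA to messenger RNA. The promoter of the interfering construct, the number of lines, the light regime and the hour of harvest are not stated in the labels.

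ELF3, ELF4 and LUX proteins assemble in the evening into the evening complex, a repressor that holds down PRR9, PRR7 and the growth factors PIF4 and PIF5 at night. LUX is its MYB-like DNA-binding subunit, ELF3 its scaffold, and ELF4 a small protein that strengthens its action. ZTL, FKF1 and LKP2 are blue light sensors with a LOV domain, an F-box that docks into an SCF ubiquitin ligase, and Kelch repeats. ZTL marks the clock proteins TOC1 and PRR5 for destruction, while FKF1 removes CDF repressors of flowering. GI stabilises ZTL in the light and binds FKF1. In wild-type plants the transcripts of GI, FKF1, ELF4 and LUX are known to rise toward evening, whereas ZTL transcript is known to stay nearly level through the day.

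The deposited values are FPKM (fragment counts divided by transcript length and by library size), with 1 value per genotype over its 3 libraries and 1 p-value and q-value per gene. No value of a single library was given for any of the 7 genes, so the spread between replicates is unknown. The authors' q-value is no measure of that spread. A gene is called here when that q is under 0.05. The log2 ratio is the FPKM of the libraries labelled knockdown over that of wild type, with no pseudocount. Library depth is unknown. The targeted transcript went against its label: CPL4 (AT5G58003) stood at 4.92 FPKM in wild type and 8.84 FPKM in the labelled knockdown, q = 6.39e-04, in the authors' deposited table. Directions below are therefore those of the libraries labelled CPL4 knockdown, called the labelled knockdown. The RNA of both genotypes held shoot and root transcripts: RBCS1A, of the Rubisco small subunit, was at 4637 and 5823 FPKM, and the root glucosidase gene PYK10 at 589 and 593 FPKM.

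The promoters of the 7 genes were scanned because evening expression is known to depend on the evening element, the site bound by the morning factors CCA1 and LHY and by the REVEILLE activators. The letters AAAATATCT were searched on both strands in the RefSeq assembly TAIR10.1, and the matches within 1000 bases before the annotated gene start are shown in capitals, 5′ to 3′ on the strand of the gene. A match written as AGATATTTT lies on the other strand.
ELF4, chr2:16735461-16735509, minus strand: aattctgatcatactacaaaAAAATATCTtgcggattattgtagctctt
LUX, chr3:17182969-17183017, plus strand: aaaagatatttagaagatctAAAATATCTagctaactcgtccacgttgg
GI, chr1:8060922-8060970, plus strand: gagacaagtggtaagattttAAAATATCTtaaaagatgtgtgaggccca
GI, chr1:8060954-8061002, plus strand: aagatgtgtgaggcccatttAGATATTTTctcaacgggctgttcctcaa
GI, chr1:8061140-8061188, plus strand: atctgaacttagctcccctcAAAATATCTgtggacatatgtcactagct
FKF1, chr1:25508246-25508294, plus strand: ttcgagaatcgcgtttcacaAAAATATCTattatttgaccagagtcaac
FKF1, chr1:25508433-25508481, plus strand: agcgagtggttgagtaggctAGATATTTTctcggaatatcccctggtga

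Evening elements thus preceded 4 of the 7 genes within 1000 bases, with 3 before GI, 2 before FKF1 and 1 each before ELF4 and LUX, against 7.24% of 27443 protein-coding promoters of that length. Within 500 bases they preceded 2 of the 7, LUX and FKF1, against 4.44% of promoters. The window of 1000 bases was taken because few lay within 500, so its count is description only. The element nearest to a start was that of LUX, 53 bases before it. ELF3, ZTL and LKP2 had no such letters in either window. A match is a description of sequence and no evidence of binding, and windows of this length can run into a neighbouring gene.

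The site bound by LUX itself was searched as GATTCG and GATACG on both strands. Within 500 bases the T form preceded LUX and LKP2, against 15.4% of promoters, and the A form ELF3 and ELF4, against 8.76%. Within 1000 bases the T form also preceded GI, against 28.16% of promoters. The A form there preceded the same genes, with a second match before ELF3, against 16.88%. The A form lay at like distances before the genes of LUX's partners, 83 bases before ELF3 and 92 bases before ELF4. These 2 windows were picked because both genes fell, so they cannot speak to a link between site and fall, which was not tested. LUX and FKF1 also fell, with no A form within 500 bases. The T form preceded LUX, called lower, and LKP2, not called. The match before ELF3 is on the other strand.
ELF3, chr2:11058841-11058886, plus strand: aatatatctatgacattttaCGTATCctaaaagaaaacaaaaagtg
ELF4, chr2:16735020-16735065, minus strand: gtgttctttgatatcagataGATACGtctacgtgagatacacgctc

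The CCA1 binding site, searched as AAAAATCT, was found within 500 bases of 1 of the 7 genes, LKP2, against 12.5% of promoters. The G-box CACGTG, a site of light-responsive factors, was found before 1, LUX, against 9.35%. Within 1000 bases these sites were still found before LKP2 and LUX alone, against 21.15% and 14.78% of promoters. Of the 7 evening elements, 0 overlapped a match to another of these motifs. The map of motif matches places them along the promoters.

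**Figure D1:**
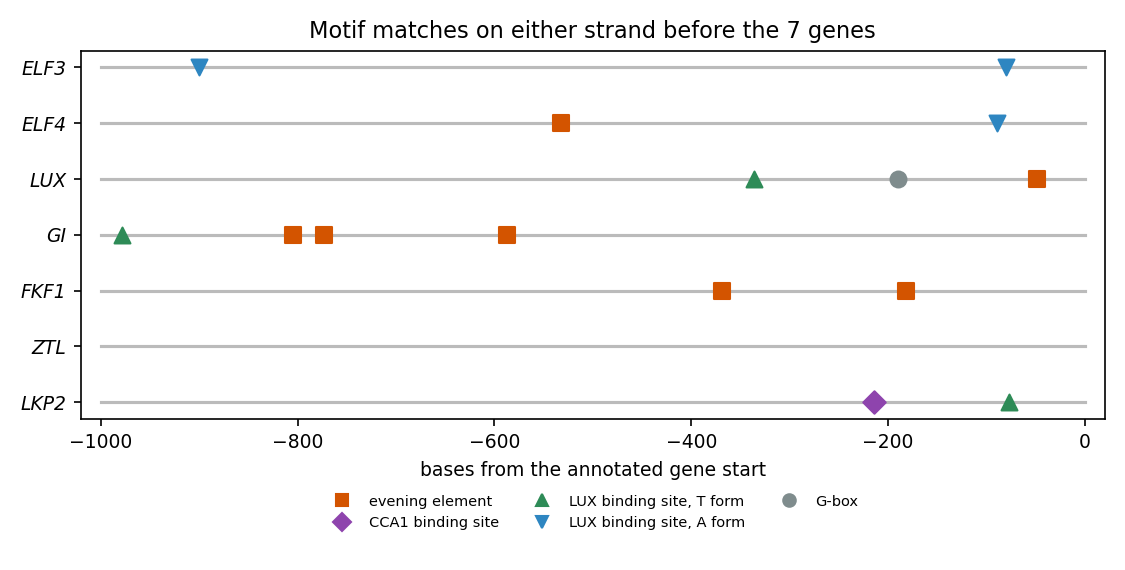
Motif matches on either strand within 1000 bases before the annotated start of each gene (x axis, bases from the start, 0 at the start; y axis, gene). Evening elements lie before ELF4, LUX, GI and FKF1, with 3 before GI and 2 before FKF1.

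Transcripts of the evening complex genes all fell in the labelled knockdown: 3 of the 3 genes were called lower and 0 higher. The complex itself, made of proteins, was not measured. With FKF1, 4 of the 7 genes were called lower and 0 higher, whereas GI, ZTL and LKP2 were not called. Of all 18038 genes tested in the authors' deposited table, 22.5% were called, 12.7% higher and 9.78% lower. The median log2 ratio was −0.52 over the evening complex, −0.13 over GI and the ZTL family, −0.51 over all 7 and −0.00 over all tested genes. Whether genes of the 7 differed from each other in their change was not tested. Fewer cells that express a gene and less RNA per cell cannot be told apart in whole seedlings. The hour of harvest is not stated, so for genes that rise toward evening a lower level and a shifted rhythm cannot be told apart either.

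ELF4 showed the largest fall of the 7. In the authors' deposited table it stood at 18.7 FPKM in wild type and 10.6 FPKM in the labelled knockdown, a log2 ratio of −0.82, with p = 1.50e-04 and q = 0.00166. The labelled knockdown thus held 56.8% of the wild-type level. ELF4 is a gene of 1 exon on chromosome 2 (16734294 to 16734912, TAIR10, minus strand), with a coding sequence of 336 bases, and the FPKM of a transcript this short is sensitive to how fragment length is modelled. Of the tested genes with reads in both genotypes, 4.15% had a lower log2 ratio than ELF4 in the authors' deposited table.

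ELF3, the scaffold, went from 29.0 to 20.2 FPKM per the authors' deposited table, with a log2 ratio of −0.52, p = 1.00e-04 and q = 0.00117. Its deposited locus (chromosome 2, 11059035 to 11066028, TAIR10) also takes in ALPHA-VPE, a protease gene on the opposite strand. ALPHA-VPE was listed at 0.415 FPKM in wild type and 2.22 FPKM in the labelled knockdown, q = 0.319, in the authors' deposited table. The level of ALPHA-VPE was far below that of ELF3 in both genotypes, and ALPHA-VPE was not called. Its part in the ELF3 values was not tested. RefSeq also places an antisense RNA gene over 183 bases of ELF3, and opposite-strand genes over 1507 bases of LUX and 21 bases of FKF1. The overlaps of LUX and FKF1 are those of the RefSeq models: their deposited loci overlap no other listed gene. The labels do not say whether counting used strand, so reads of overlapping genes cannot be told apart.

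LUX, the DNA-binding subunit, was the most abundant of the complex per transcript length. It went from 60.4 to 42.4 FPKM per the authors' deposited table (chromosome 3, 17183070 to 17185218, TAIR10), giving a log2 ratio of −0.51 with p = 2.00e-04 and q = 0.00211. LUX and ELF3 stood at 70.2% and 69.7% of their wild-type FPKM. Of the genes called lower with reads in both genotypes, 71.6% fell further than LUX and 70.1% further than ELF3. The order of levels within the complex was LUX, ELF3, ELF4 in both genotypes.

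Summed over the complex, FPKM went from 108 in wild type to 73.2 in the labelled knockdown. The FPKM of LUX was 2.09 times that of ELF3 in wild type and 2.10 times in the labelled knockdown. That of ELF3 was 1.55 times that of ELF4 in wild type and 1.90 times in the labelled knockdown. The share of ELF4 in the summed FPKM of the complex was 17.3% in wild type and 14.5% in the labelled knockdown. These shares carry no error of their own, and their difference was not tested.

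**Figure D2:**
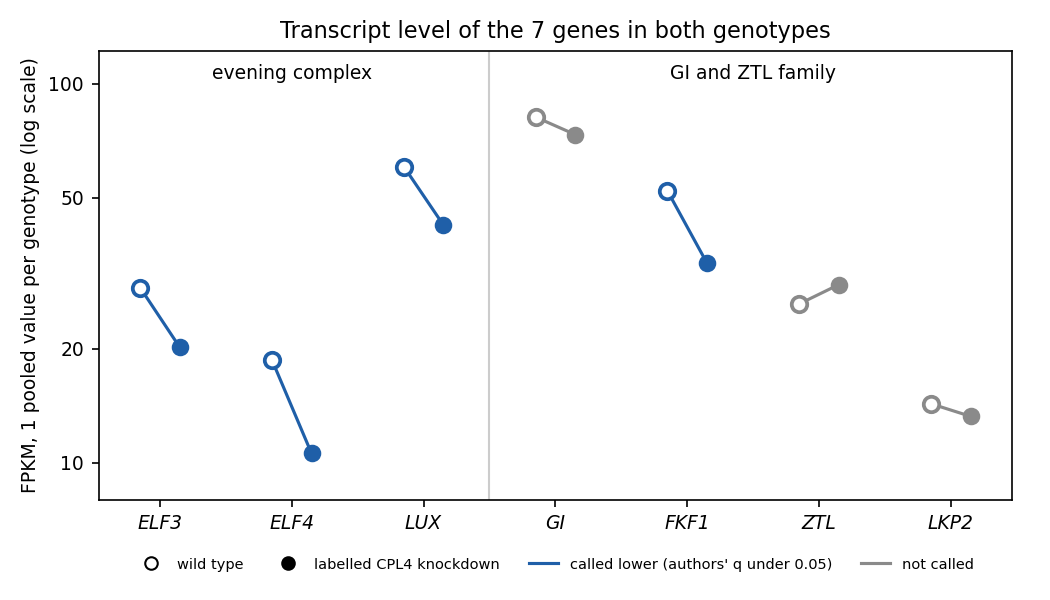
FPKM of each gene in wild type (open) and in the labelled knockdown (filled), 1 value per genotype over 3 libraries, on a log scale; the x axis gives the gene and blue marks genes called lower at the authors' q under 0.05. ELF3, ELF4, LUX and FKF1 slope down, from 18.7 to 10.6 FPKM for ELF4, while GI, ZTL and LKP2 were not called.

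FKF1, the flowering-time sensor of the ZTL family, was the other gene that fell. It went from 52.2 to 33.6 FPKM per the authors' deposited table (chromosome 1, 25508676 to 25510889, TAIR10), a log2 ratio of −0.63. Its q = 6.39e-04 is the lowest q-value in that table, a value shared by many genes, CPL4, TOC1 and LHY among them. FKF1 retained 64.5% of its wild-type FPKM. Among the genes called lower there, 51.3% of those with reads in both genotypes fell further.

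GI was the most abundant of the 7 per transcript length in both genotypes. It was listed at 81.6 FPKM in wild type and 73.4 FPKM in the labelled knockdown, a log2 ratio of −0.15 with p = 0.255 and q = 0.444 in the authors' deposited table. GI spans 14 exons on chromosome 1 (8061844 to 8067716, TAIR10), and 94.9% of tested genes had a lower wild-type FPKM. Its ratio to FKF1, the partner it binds, was 1.56 in wild type and 2.18 in the labelled knockdown.

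ZTL was the single gene of the 7 whose FPKM was higher in the labelled knockdown, and it was not called. It was listed at 26.2 and 29.5 FPKM, a log2 ratio of 0.17 with p = 0.206 and q = 0.387 in the authors' deposited table (chromosome 5, 23241427 to 23244590, TAIR10). LKP2 was listed at 14.3 and 13.3 FPKM, a log2 ratio of −0.11 with p = 0.437 and q = 0.626 in the authors' deposited table. The deposited locus of LKP2 (chromosome 2, 8194572 to 8198160, TAIR10) also holds the antisense RNA gene AT2G18917, which overlaps LKP2 by 370 bases in RefSeq. AT2G18917 was listed at 0.800 and 1.22 FPKM with q = 0.819 in the authors' deposited table, and AT2G18920 in the same locus at 0 in both genotypes.

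FKF1 made up a smaller part of the ZTL family's transcripts in the labelled knockdown, a difference that was not tested. In wild type the order was FKF1, ZTL, LKP2, and FKF1 made up 56.3% of the family's summed 92.7 FPKM. In the labelled knockdown FKF1 made up 44.0% of 76.4 FPKM and ZTL 38.6%, against 28.3% for ZTL in wild type. FKF1 stood at 1.99 times the FPKM of ZTL in wild type and at 1.14 times in the labelled knockdown. The share of LKP2 was 15.4% and 17.4%.

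The coding sequences of the family in RefSeq were compared, because reads of like sequences can be credited to the wrong gene. ZTL (626 residues) and LKP2 (611 residues) share 74.5% of aligned residues and 73.5% of aligned coding bases. FKF1 (619 residues) shares 63.6% of residues with ZTL and 61.2% with LKP2. The longest identical coding run of ZTL and LKP2 is 20 bases, against reads of 100 bp. The run is shown as the longest stretch in which their coding bases cannot be told apart. How reads of the family were placed, also in untranslated parts and with mismatches, was not tested.
ZTL and LKP2: gaaggtgtgaatatgcagcc
ZTL and FKF1 share at most 14 bases in a row, and FKF1 and LKP2 at most 13.

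The size of change that the authors' test called at these levels puts the calls in context. All 7 genes had a mean FPKM between 10 and 100, a range with 7237 tested genes, of which 25.4% were called. In that range 0 of 1621 genes with an absolute log2 ratio from 0.1 to 0.2 were called, the class of GI, ZTL and LKP2. From 0.5 to 0.6, the class of ELF3 and LUX, 93.6% of 389 genes were called, and from 0.6 to 0.7, the class of FKF1, 96.3% of 218. The smallest absolute log2 ratio called in the range was 0.33. A change of the size listed for GI, ZTL or LKP2 was thus not detectable with these libraries and this test, and the missing calls do not show that their levels were equal.

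**Figure D3:**
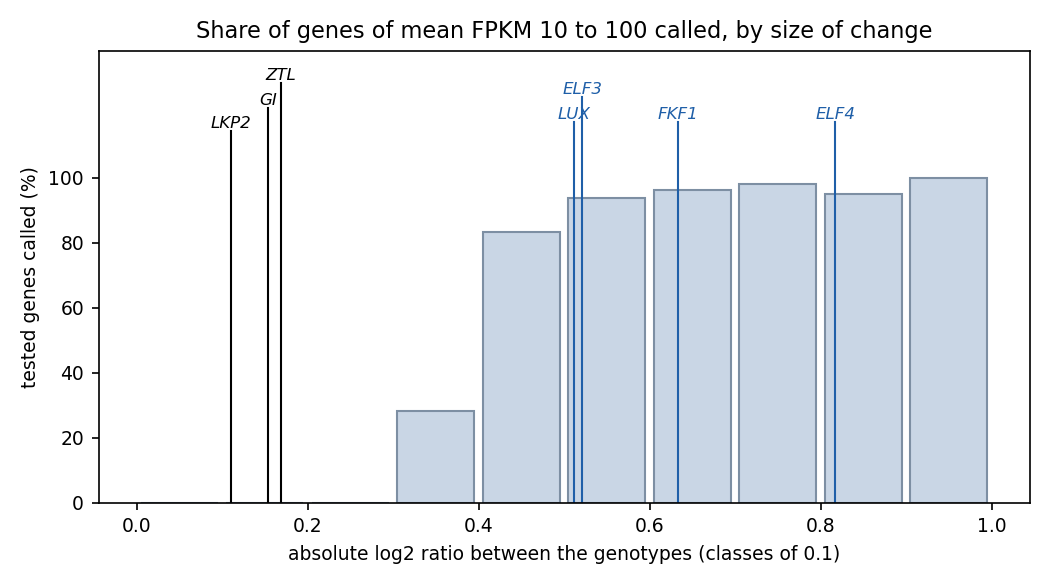
Share of tested genes of mean FPKM 10 to 100 that were called at the authors' q under 0.05 (bars, percent), by absolute log2 ratio in classes of 0.1 (x axis); vertical lines mark the 7 genes, blue for called lower. GI, ZTL and LKP2 lie where 0% of genes were called, and ELF3, LUX, FKF1 and ELF4 where 93.6% or more were.

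**Figure D4:**
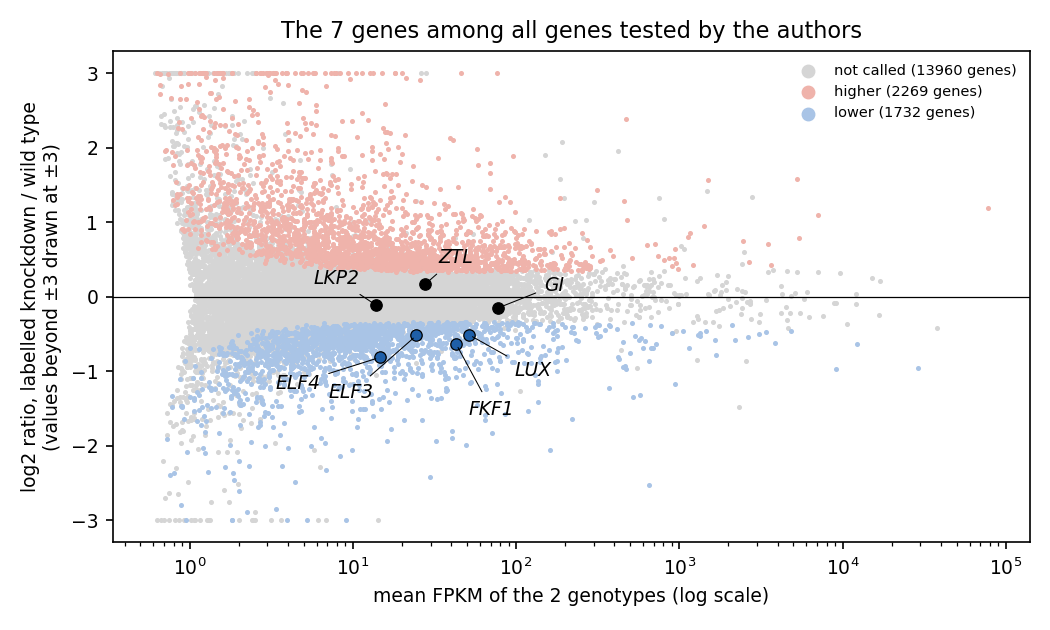
Log2 ratio of the labelled knockdown over wild type (y axis) against the mean FPKM of the genotypes (x axis, log scale) for every tested gene with reads in both genotypes, coloured by the authors' call at q under 0.05. ELF4 at −0.82 lies lowest of the 7, and ZTL at 0.17 is the single one above 0.

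The start groups repeated the gene calls for the main start of each gene. Of 9 start groups, 7 were tested, and 4 were called lower and 0 higher in the authors' deposited table of start groups. Of all 20159 tested start groups, 17.5% were called, 10.2% higher and 7.34% lower. ELF3, ELF4, GI, FKF1 and ZTL have 1 start group, so their values there are those of the gene. LUX has a second start group, listed at 0.456 FPKM in wild type and 1.98e-04 FPKM in the labelled knockdown, 0.755% of the gene's wild-type FPKM. The second start group of LKP2 was listed at 0.00269 FPKM in wild type and 0.454 FPKM in the labelled knockdown, where it made up 3.42% of the gene's FPKM. Neither second group was tested by the authors, and values this low stand for few reads. The main group of LUX fell from 60.0 to 42.4 FPKM with q = 0.00257 in the authors' deposited table of start groups, and that of LKP2 was at 14.3 and 12.8 FPKM with q = 0.506.

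The paralogs of the evening complex were lower where they were called. Of 6 paralogs 5 were tested, 2 were called lower and 0 higher, with a median log2 ratio of −0.68 against −0.00 over all tested genes. Of all tested genes, 9.78% were called lower and 12.7% higher. BOA, the closest relative of LUX, fell from 3.78 to 2.36 FPKM (q = 0.0347) in the authors' deposited table. ELF4-L4 fell from 5.52 to 2.70 FPKM (q = 0.00619) in the same table. Of the other ELF4-like genes, ELF4-L3 was listed at 1.55 and 0.494 FPKM (q = 0.0724), ELF4-L2 at 10.2 and 8.77 FPKM (q = 0.466) and ELF4-L1 at 0.519 and 1.28 FPKM (q = 0.275). EEC, the ELF3-like gene, was at 0.0386 and 0.276 FPKM and was not tested in the authors' deposited table. This list and those below were chosen with earlier results of these data known. Their counts beside the shares of all tested genes are description only.

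The genes that the evening complex is known to repress went different ways. Of 4 tested, 2 were called higher and 1 lower, against 12.7% and 9.78% of all tested genes. Their median log2 ratio was 0.17. PRR9, a clock repressor that peaks in the morning, rose from 1.89 to 6.76 FPKM, 3.58-fold (q = 6.39e-04), in the authors' deposited table. PIF5 rose from 81.8 to 104 FPKM (q = 0.0472), while PRR7 fell from 55.8 to 42.9 FPKM (q = 0.0208), in the authors' deposited table. PIF4 was listed at 58.2 and 57.7 FPKM with q = 0.953 there.

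Regulators of the evening genes were called higher or not at all. Of 12 tested, 6 were called higher and 0 lower, against 12.7% and 9.78% of all tested genes. Their median log2 ratio was 0.36. LHY, the morning MYB repressor of evening genes, rose from 0.461 to 7.38 FPKM, 16.0-fold, and its partner CCA1 from 3.41 to 8.96 FPKM, 2.62-fold (both q = 6.39e-04), in the authors' deposited table. The LHY fold rests on a wild-type value under 1 FPKM and is loose. RVE8, an activator that binds the same evening element, rose from 0.992 to 2.39 FPKM (q = 0.00484) in the authors' deposited table. Of its coactivators LNK1 rose from 23.7 to 30.9 FPKM (q = 0.0267), and the related LNK3 from 3.79 to 10.8 FPKM and LNK4 from 9.98 to 17.0 FPKM (both q = 6.39e-04), in that table. LNK2 was listed at 27.2 and 34.3 FPKM with q = 0.0578 in the authors' deposited table. RVE4, RVE6 and the known activators of ELF4, FHY3, FAR1 and HY5, were not called, with log2 ratios from −0.15 to 0.06.

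Partners of the evening complex gave 3 higher calls and 1 lower among 10 tested, against 12.7% and 9.78% of all tested genes. Their median log2 ratio was −0.16. PHYB, the red light receptor that binds ELF3, rose from 21.7 to 31.7 FPKM, and TZP, a nuclear protein of the same light pathway, from 9.06 to 16.0 FPKM (both q = 6.39e-04), in the authors' deposited table. BBX19, a B-box protein that promotes ELF3 turnover, rose from 0.959 to 2.28 FPKM (q = 0.0200) in that table. XBAT31, a ubiquitin ligase that acts on ELF3, fell from 179 to 113 FPKM (q = 6.39e-04) in the authors' deposited table. COP1 was at 15.5 and 14.2 FPKM with q = 0.577. PCHL was under 1 FPKM in both genotypes and was not tested.

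The ligase and chaperone genes that serve the ZTL family were called higher in 6 of 10 tested, and 0 were lower. Of all tested genes, 12.7% were called higher and 9.78% lower. The median log2 ratio of the list was 0.42. ASK1, the adaptor that binds the F-box, rose from 108 to 155 FPKM (q = 0.00117) in the authors' deposited table. CUL1, the cullin of the ligase, rose from 53.2 to 73.9 FPKM (q = 0.00412) and RBX1, its RING subunit, from 25.6 to 33.6 FPKM (q = 0.0476) there. HSP90.1, of the chaperone family that matures ZTL, rose from 3.18 to 8.36 FPKM (q = 6.39e-04) in the authors' deposited table. HSP90.2 rose from 75.3 to 105 FPKM (q = 0.00254) and HSP90.3 from 77.4 to 105 FPKM (q = 0.00749) in that table. HSP90.4 was not called (q = 0.148); HSP90.2, HSP90.3 and HSP90.4 are near-identical copies whose reads may be shared out in ways the labels do not state. ASK2 (q = 0.0770) and the ubiquitin proteases UBP12 (q = 0.0702) and UBP13 (q = 0.558), which bind GI, were not called either.

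Substrates of the ZTL family gave 3 higher calls and 1 lower among 7 tested, against 12.7% and 9.78% of all tested genes. Their median log2 ratio was 0.56. TOC1, the evening repressor that ZTL removes, fell from 57.9 to 36.8 FPKM (q = 6.39e-04) in the authors' deposited table. PRR5, the other clock substrate of ZTL, was at 62.8 and 56.4 FPKM (q = 0.433) there, and CHE, a TCP factor of the clock, at 82.2 and 82.8 FPKM (q = 0.963). The CDF genes, whose proteins FKF1 and GI remove to allow CO transcription, were higher where called. CDF1 rose from 8.59 to 12.7 FPKM (q = 0.0106), CDF2 from 2.81 to 5.23 FPKM and CDF3 from 20.3 to 30.4 FPKM (both q = 6.39e-04), in the authors' deposited table. CDF5 was listed at 2.84 and 5.39 FPKM with q = 0.0571, and its locus overlaps AT1G69572, listed at 6.02 and 4.33 FPKM with q = 0.539, in that table.

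The flowering genes downstream of GI and FKF1 were lower where called, in 2 of 3 tested and 0 higher, with a median log2 ratio of −0.48. Of all tested genes, 9.78% were called lower and 12.7% higher. FT, the florigen gene, fell from 3.10 to 0.599 FPKM (q = 0.0257) and SOC1, a floral integrator at 19.5 FPKM in wild type, fell 1.39-fold (q = 0.0120) in the authors' deposited table. CO, which activates FT, was low in both genotypes at 1.61 and 1.31 FPKM (q = 0.518) there. Of 5 tested partners of GI, 2 were called higher and 0 lower, with a median log2 ratio of 0.11: the floral repressors TEM1, from 67.3 to 88.8 FPKM (q = 0.0155), and TEM2, from 119 to 165 FPKM (q = 0.00254), in the authors' deposited table. SOS2, the salt tolerance kinase that GI holds inactive, was listed at 2.32 and 1.76 FPKM (q = 0.265) in that table. SVP (q = 0.582) and SPY (q = 0.981) were not called.

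Of the photoreceptor genes, PHYB, given above with the partners of the evening complex, was called higher, and those listed apart from it were not called. PHOT1 and PHOT2, which carry LOV domains as ZTL does, CRY1, CRY2 and PHYA gave 0 calls among 5 tested in the authors' deposited table at q under 0.05, and 0 at an unadjusted p under 0.05. Their log2 ratios ran from −0.24 to 0.23. Of all tested genes, 22.5% were called at q under 0.05.

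**Figure D5:**
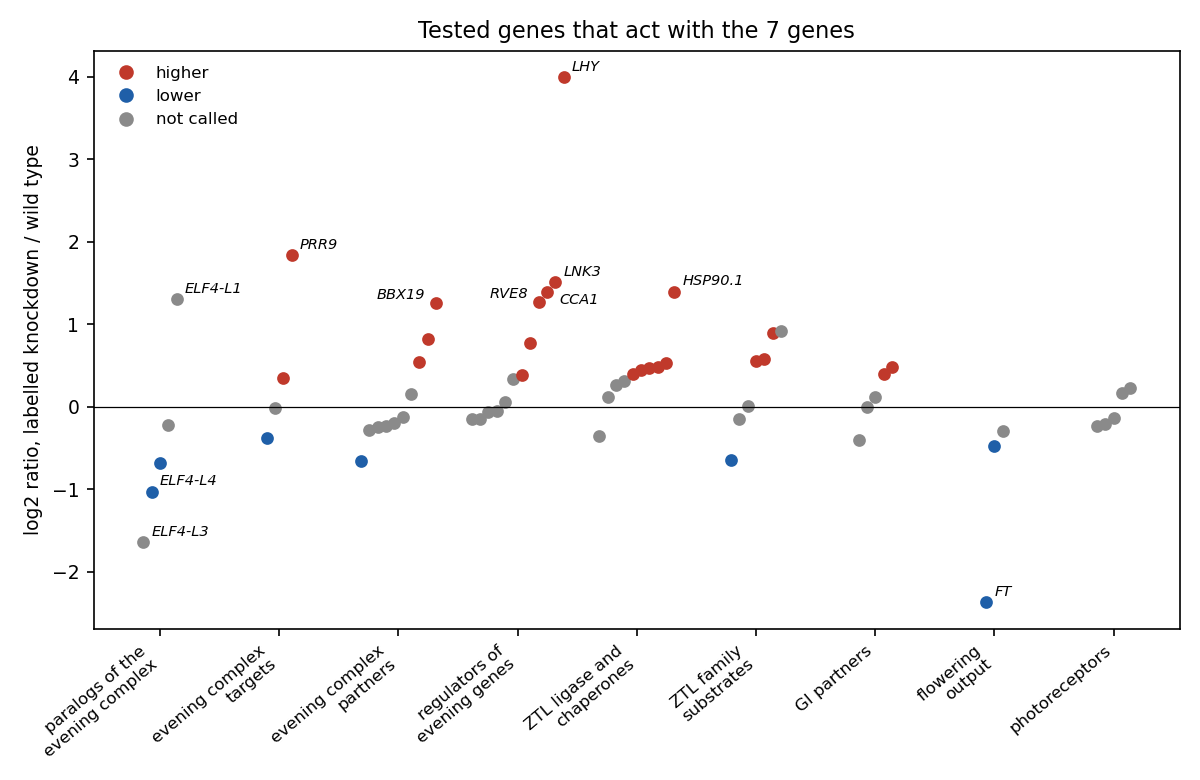
Log2 ratio of the labelled knockdown over wild type (y axis) for tested genes that act with the 7 genes, by role (x axis); each point is a gene, red for called higher, blue for called lower and grey for not called at the authors' q under 0.05. Regulators of evening genes show 6 higher calls and 0 lower, led by LHY at 4.00, and flowering genes 2 lower calls and 0 higher. Of all tested genes, 12.7% were called higher and 9.78% lower.

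Markers of seedling organs moved as well in the authors' deposited table, and their part in the values of the 7 genes was not tested. Of all tested genes, 12.7% were called higher and 9.78% lower. Of 5 shoot markers, 2 were called lower and 0 higher, with summed FPKM of 26020 in wild type and 21062 in the labelled knockdown. The antenna genes LHCB1.3 (15003 to 9631 FPKM, q = 0.00211) and LHCA1 (3120 to 2148 FPKM, q = 0.00586) fell. RBCS1A (4637 and 5823 FPKM), RCA (2459 and 2566 FPKM) and CA1 (801 and 893 FPKM) were listed higher but not called. The lower shoot sum is thus that of the antenna genes, LHCB1.3 above all. Of 4 root markers 3 were tested and 1 was called lower, the Casparian strip gene CASP1 (8.51 to 4.89 FPKM, q = 0.0120), with summed FPKM of 599.0 and 599.6. PYK10, at 589 and 593 FPKM and not called, makes up most of the root sum. EXPA7 (1.10 and 1.16 FPKM) was not called, and COBL9 (0.688 and 0.387 FPKM) was not tested. Of 3 seed markers 2 were tested and both rose, CRA1 from 0.278 to 9.65 FPKM and CRU3 from 0.289 to 2.77 FPKM (both q = 6.39e-04), with summed FPKM of 0.795 and 13.3.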

How the data were processed

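Per the labels' protocols, libraries were made from rRNA-depleted total RNA and read in pairs of 100 bp. Tools named in the submitters' processing notes are Cuffdiff 2.2.1.3, TopHat2 2.0.14, Trim Galore 0.4.0, CASAVA 1.8.2 and SAMtools, with the build TAIR10 and no options. The authors deposited FPKM per gene and per start group, 1 value per genotype. They also deposited 1 p-value and 1 q-value per feature across all 18038 tested genes; the layout is that of Cuffdiff per the file headers, which name no unit. Whether the 3 replicates were separate cultures is stated only as biological triplicate. A deposited table of depth over small nuclear RNA regions holds none of the 7 genes and was not used.

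Log2 ratios were computed from the deposited FPKM. Calls are the authors' q under 0.05. Recomputing the Benjamini-Hochberg adjustment over the deposited p-values gave the deposited q within 5.25e-07. Alternatives were a q under 0.01, an unadjusted p under 0.05, a minimum of 1 FPKM, pseudocounts of 0.1 and 1 FPKM, centring, rescaling and summing start groups. Sequences and gene models are RefSeq's, of TAIR10.1. Deposited loci are given in TAIR10, counted from 1. Evening element windows reach 1000 bases because few lay within 500. Coding and protein sequences were aligned globally with Biopython 1.88. Python 3.11.15, numpy 2.4.6, pandas 2.3.3 and matplotlib 3.10.9 were used. The adjustment, the call rule and the motif search were tested on simulated data.

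Named were all 7 genes, every gene called in a list of partners, targets, regulators, substrates or organ markers, those needed to state small counts, and genes overlapping the 7. The members and lists were chosen with earlier results of these data known. With 1 value per genotype, no likeness of pattern between genes was measured.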

Additional observations from a re-analysis of the deposited data

How the results depend on the processing

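The 4 lower calls and 0 higher calls of the 7 genes, and of their start groups, were the counts under every alternative threshold tried. Of these, only a q under 0.01 could have removed a call. An unadjusted p under 0.05 could only add calls, and the recomputed adjustment repeated the deposited q. A minimum of 1 FPKM removed no tested gene, so it changed none of the counts. The log2 ratios of the 7 genes and of CPL4 kept their sign under both pseudocounts, centring on the median, rescaling to equal sums and summing start groups, and moved by at most 0.11. A pseudocount added to both genotypes cannot change a sign, and start group sums repeat the gene values. Centring, on a median of −0.0035, and rescaling, a shift of −0.072, were smaller in size than every one of these ratios, of which LKP2 at −0.11 was the smallest. They could not change a sign either, so the kept signs are no check of direction. ELF4 ranged from −0.89 to −0.76 and ZTL from 0.10 to 0.17. At q under 0.01, the paralogs had 1 lower call, the evening complex targets 1 higher and 0 lower, the partners of GI 1 higher, the flowering genes 0 lower and the root markers 0 lower. The higher calls at that threshold were also 1 fewer among the partners of the evening complex (2), the regulators of the evening genes (5), the ligase and chaperone genes of the ZTL family (5) and its substrates (2). The threshold alone differs there. No paired analysis was possible because the tables hold 1 value per genotype and none per library, and for the same reason no replicate could be left out. Depth per library is unknown. At a mean of 10 to 100 FPKM no gene below an absolute log2 ratio of 0.33 was called.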
